A study of Mus musculus with 71 samples.

Results

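The genes described here are 9 transcription factors and cofactors of blood progenitors, Lmo2, Lyl1, Hhex, Bcl11a, Spi1, Mef2c, Meis1, Hoxa9 and Cebpa, chosen by name because early lymphoid progenitors express them and T cells switch them off. All 9 were present among the 25579 genes of the tables aligned to mm10 and among the 24420 genes of the tables aligned to mm9. Multipotent progenitors keep several blood cell fates accessible through factors of this kind, which are shut down in sequence as cells commit to 1 lineage. Lmo2 is a bridging protein that joins the basic helix-loop-helix factors Lyl1 or Tal1 to Ldb1 and GATA factors, whereas Spi1 encodes the ETS factor PU.1, which acts in myeloid, B cell and early T cell progenitors. Meis1 is a homeodomain partner of Hoxa9 in stem and progenitor cells, and Cebpa encodes C/EBPα, which drives granulocyte and monocyte development.

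The study removed domains of Pax5, the factor that commits cells to the B cell lineage, in C57BL/6 mice, and measured poly(A) RNA in cells sorted from bone marrow or thymus. The mm10 tables held 31 libraries in 14 groups, 5 of wild-type Pax5 +/+ pro-B cells and 2 of every other genotype. Germline deletions of the octapeptide (∆OP), of the partial homeodomain (∆HD) or of both (∆OP,HD) were homozygous. Deletions of the C-terminal regulatory domains, namely the transactivation domain with a short extension (∆CRD1), the larger part of the inhibitory domain (∆CRD2) or both (∆CRD1,2), were either homozygous or placed opposite a Pax5 null allele (–). Vav-Cre, which acts from haematopoietic stem cells onwards, removed the floxed Pax5 allele in ∆/∆ progenitors, in +/∆ pro-B cells and in Prd/∆ progenitors, whose remaining allele encodes little more than the paired domain. The +/∆, Prd/∆ and a further pair of ∆/∆ libraries formed a separate experiment. The mm9 tables held 17 libraries of wild-type LMPP cells (lymphoid-primed multipotent progenitors, 2), of the successive CD4– CD8– thymocyte stages DN1 (3), DN2a (3), DN2b (3), DN3a (2) and DN3b (2), and of Rag2–/– DN3a thymocytes (2), which cannot rearrange T cell receptor genes. In DN1, DN2a and DN2b, 2 of the 3 libraries carry the same replicate number, and all were treated as separate samples. The labels give no age.

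Several features of the samples bear on every value. Recovered depths of the 31 libraries ranged from 10018678 to 43784791 reads, whereas the depth of the mm9 libraries is unknown. The ∆CRD1,2/– cells and the first ∆/∆ pair were sorted as Lin– Ly6D+ Kit-high B220+ cells. The paper names that gate for ∆CRD1,2/∆CRD1,2 cells in its open-chromatin work and does not state the gate of their RNA libraries. The Prd/∆ cells and the second ∆/∆ pair were sorted by what the labels call an alternative gating without defining it, and the other genotypes through a pro-B cell gate. Genotype and gate cannot be told apart where these gates differ, and the ∆/∆ pairs may differ in gate as well as in experiment. Reads were 50 nt long in wild-type samples 1, 2 and 5 and in ∆CRD1/∆CRD1 and the first ∆/∆ pair, and 100 nt long before trimming in the other pro-B libraries, and differences from wild type for the C-terminal domains were therefore fitted with a term for read length. The summed level of 10 B cell lineage markers was 19977 to 24627 TPM (reads scaled by transcript length and library size) in wild-type cells and 7541 and 8134 TPM in ∆/∆ cells. These are bulk samples, in which fewer cells of a type and less RNA per cell cannot be told apart.

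Most of these genes remained expressed in committed pro-B cells, whereas all 9 fell in the T lineage. Their loss in T cells was a reason for choosing them, so the fall there is no test of that description. In wild-type pro-B cells 6 of the 9 genes were above 40 TPM in every library and 7 of 9 were above 5 TPM. Only Hoxa9, at 4.09 to 11 TPM, and Cebpa, at 1.34 to 2.54 TPM, were lower in some or all wild-type libraries. In DN3a thymocytes, by contrast, every gene except Bcl11a was at 6.68 TPM or less in both libraries, and all 9 were lower than in LMPP cells. Several members were nonetheless far below LMPP cells in pro-B cells too. Lmo2, Meis1, Hoxa9 and Cebpa had wild-type pro-B means of 64.1, 16.3, 6.32 and 1.80 TPM. Their LMPP means were 947, 139, 74.7 and 127 TPM. All 9 genes are set against the thymic stages further below. Levels of the mm10 and mm9 tables were normalised separately and are set side by side without a test.

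Meis1 and Hoxa9 were the members that fell in several C-terminal mutants, so the 300 bases around their annotated start sites (250 before, 50 after) are shown from RefSeq on GRCm38.p6, both on the minus strand, Hoxa9 at chr6:52227321-52227620 and Meis1 at chr11:19018920-19019219. Capitals mark GAGGAA, the core bound by PU.1, or its reverse complement.
Hoxa9: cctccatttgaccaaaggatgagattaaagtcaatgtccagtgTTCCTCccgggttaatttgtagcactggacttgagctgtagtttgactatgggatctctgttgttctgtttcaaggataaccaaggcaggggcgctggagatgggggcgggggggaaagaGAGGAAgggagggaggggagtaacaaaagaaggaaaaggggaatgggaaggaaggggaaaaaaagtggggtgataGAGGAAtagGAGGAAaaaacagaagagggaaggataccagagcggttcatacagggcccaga
Meis1: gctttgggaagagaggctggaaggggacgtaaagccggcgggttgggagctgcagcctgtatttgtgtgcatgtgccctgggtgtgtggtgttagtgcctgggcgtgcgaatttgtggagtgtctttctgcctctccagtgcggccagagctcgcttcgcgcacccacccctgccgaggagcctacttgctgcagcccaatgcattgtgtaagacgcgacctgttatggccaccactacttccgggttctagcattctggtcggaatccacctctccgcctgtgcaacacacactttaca
The Hoxa9 window held 4 matches to GAGGAA over both strands, starting at positions -207, -87, -12 and -3 relative to the start site, whose base counts as 0, whereas the Meis1 window held 0. GAGGAA occurred on either strand in 28.3% of the 32851 promoters of the table. The E-box CANNTG, the sequence read by bHLH factors such as Lyl1, had 1 match in each window and occurred in 72.3% of all promoters. Neither window held TGACAG, a core bound by Meis proteins, or GCGTGAC, a part of the Pax5 consensus, which occurred in 19.2% and 2.09% of promoters. These are matches of letters and not mapped binding sites.

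**Figure D1:**
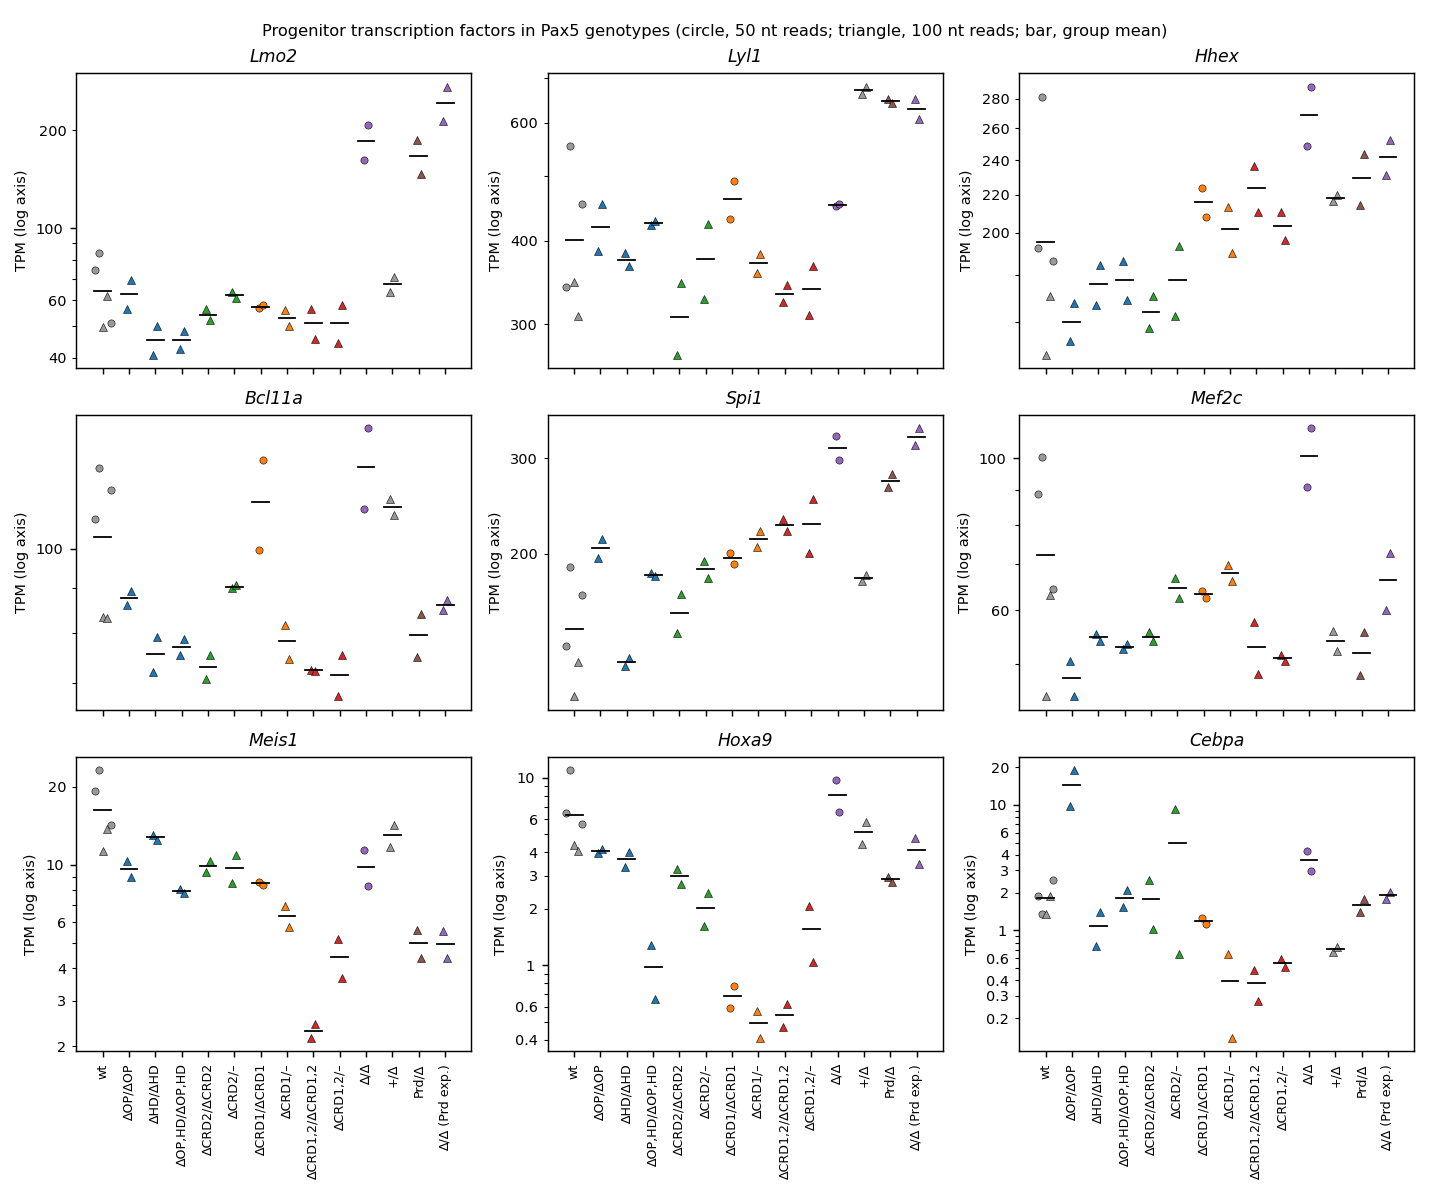
Level of each of the 9 genes in TPM (log axis) by Pax5 genotype, with 1 point per library (circles, 50 nt reads; triangles, 100 nt reads) and a bar at the group mean. Lmo2 is at 162 TPM or more in the 4 ∆/∆ libraries against at most 83.7 TPM in wild type, Hoxa9 is below 1 TPM in the ∆CRD1/∆CRD1, ∆CRD1/– and ∆CRD1,2/∆CRD1,2 libraries, and Cebpa spans 0.139 to 18.9 TPM.

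Lmo2 was higher in progenitors without Pax5, while its partner Lyl1 did not pass the test. Lmo2 (GRCm38 chr2:103957986-103981878) was at 74.4, 83.7, 49.8, 61.9 and 50.9 TPM in wild-type samples 1 to 5 and at 162 and 208 TPM in ∆/∆ progenitors. The groups did not overlap, and the difference on the log2(TPM + 0.1) scale, on which all fold changes are given, was 1.43 ± 0.21 (SE; limma, adjusted p = 0.00041). All alternatives kept this call. In the experiment with the Prd allele, Lmo2 was at 63.8 and 71.0 TPM in +/∆ pro-B cells, at 187 and 147 TPM in Prd/∆ progenitors and at 214 and 273 TPM in ∆/∆ progenitors. Both progenitor groups lay above the +/∆ cells, by 1.30 ± 0.16 (adjusted p = 0.00122) for Prd/∆ and by 1.84 ± 0.16 (adjusted p = 0.000316) for ∆/∆. The Prd/∆ libraries lay below the ∆/∆ libraries, but that difference of -0.55 did not pass the test (adjusted p = 0.146).

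In cells that lacked both C-terminal domains, Lmo2 stayed within or near the wild-type range, with 44.5 and 58.0 TPM in ∆CRD1,2/– cells and 56.5 and 45.7 TPM in ∆CRD1,2/∆CRD1,2 cells. The ∆CRD1,2/– cells were sorted through the same gate as the first pair of ∆/∆ libraries, in which Lmo2 was higher than in them by 1.56 ± 0.31 (adjusted p = 0.032). This call was lost without any 1 of 11 of the 13 libraries of the fit, at an adjusted p of up to 0.119 without ∆/∆ sample 2. The other 8 members did not pass that test, whereas 2.02% of all genes did. Lmo2 ordered from 244 TPM in the second ∆/∆ pair to 45.3 TPM in ∆OP,HD/∆OP,HD cells, a 5.38-fold span, and 9 of the 13 neighbouring pairs of groups in that order overlapped.

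Lyl1 (chr8:84701457-84704715), the bHLH partner of Lmo2, was at 341, 553, 347, 308 and 453 TPM in wild-type pro-B cells and at 450 and 454 TPM in ∆/∆ progenitors, inside that range. Over all genotypes it spanned 270 to 679 TPM, with the highest levels in the +/∆, Prd/∆ and ∆/∆ libraries of the Prd experiment (607 to 679 TPM). It passed the test in 0 of the 16 comparisons between Pax5 genotypes. Lyl1 overlaps Nfix on the opposite strand, and since the strand setting of the counting is not given in the sources used here, reads of the overlap cannot be told apart.

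Spi1 passed the test in 8 of the 16 comparisons between Pax5 genotypes, each time as higher in the mutant. Spi1 (chr2:91082390-91115756) was at 135, 189, 109, 127 and 168 TPM in wild-type cells. In ∆/∆ progenitors it was at 329 and 298 TPM, above every wild-type library, a difference of 0.95 ± 0.15 (adjusted p = 0.000755) that all alternatives kept. The cells without both C-terminal domains lay lower, at 201 and 253 TPM in ∆CRD1,2/– and at 232 and 220 TPM in ∆CRD1,2/∆CRD1,2, again above the wild-type range. Their differences within read length were 0.94 ± 0.17 (adjusted p = 0.00264) and 0.94 ± 0.16 (adjusted p = 0.0028), close in size to that of the ∆/∆ cells. Removal of the transactivation domain opposite a null allele gave 206 and 220 TPM and a difference of 0.86 ± 0.17 (adjusted p = 0.00936). That call was lost without wild-type sample 3 (adjusted p = 0.0818), ∆CRD1/– sample 1 (0.0615) or ∆CRD1/– sample 2 (0.0841).

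The octapeptide deletions also showed more Spi1. ∆OP/∆OP cells were at 196 and 213 TPM and ∆OP,HD/∆OP,HD cells at 184 and 182 TPM, against 109 and 127 TPM in wild-type samples 3 and 4, which were their controls. The differences were 0.80 ± 0.10 (adjusted p = 0.0267) and 0.64 ± 0.10 (adjusted p = 0.0287). Wild-type sample 2, at 189 TPM but with 50 nt reads, lay between the values of these mutants, and each of the 8 fits without 1 library ended both calls (adjusted p up to 0.249). The ∆HD/∆HD cells, at 124 and 129 TPM, did not differ by the test (0.10, 95% interval -0.13 to 0.33). In the Prd experiment Spi1 was at 178 and 183 TPM in +/∆, 265 and 280 TPM in Prd/∆ and 317 and 340 TPM in ∆/∆ cells, higher than +/∆ by 0.59 ± 0.08 (adjusted p = 0.00145) and 0.86 ± 0.08 (adjusted p = 0.000345). Beside these, 4 and 9 of 15 myeloid markers tested were higher and 3 and 3 were lower, where 40.7% and 39.9% of all genes passed. Their summed levels were 205 and 260 TPM in +/∆, 435 and 487 TPM in Prd/∆ and 860 and 479 TPM in ∆/∆ cells. In the genotypes with ∆CRD2 alone, Spi1 was at 143 to 194 TPM and did not pass the test.

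Hhex, Bcl11a and Mef2c passed the test in few or no comparisons between genotypes. Hhex (chr19:37434810-37440731), a homeodomain factor of early lymphoid progenitors, lay between 147 and 289 TPM in all 31 libraries, and 13 of 13 neighbouring pairs of groups overlapped. With median-ratio scaling it passed as higher in ∆CRD1,2/∆CRD1,2 cells (0.53, adjusted p = 0.0468), but not in the reported fit. Bcl11a (chr11:24078056-24174123), a zinc finger factor needed for B cell development, lay between 67.7 and 137 TPM. It was lower in the progenitors of the Prd experiment, at 75.1 and 84.1 TPM in Prd/∆ and 84.9 and 87.2 TPM in ∆/∆ against 114 and 109 TPM in +/∆ cells. These differences were -0.49 ± 0.08 (adjusted p = 0.00503) and -0.38 ± 0.08 (adjusted p = 0.0139), while in the other ∆/∆ pair Bcl11a was at 111 and 137 TPM and not lower than wild type. The first was lost without +/∆ sample 1 (adjusted p = 0.0585), and the second without any 1 of the 4 libraries compared (adjusted p up to 0.12). Mef2c (chr13:83504034-83667080), a MADS-box factor of lymphoid and myeloid progenitors, spanned 44.9 to 111 TPM and passed the test in 0 of the 16 comparisons. Its group means spanned 2.11-fold. Under a replicate block without the read-length term it passed as lower in ∆CRD1/– (-0.47, adjusted p = 0.0393) and ∆CRD2/∆CRD2 cells (-0.78, 0.0359). The reported differences there were 0.35 and 0.04.

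Meis1 was called lower in most ∆CRD1-carrying genotypes and in progenitors without Pax5. Meis1 (chr11:18879817-19018985) was at 19.2, 23.1, 11.3, 13.7 and 14.2 TPM in wild-type cells and at 2.15 and 2.44 TPM in ∆CRD1,2/∆CRD1,2 cells. It was at 5.17 and 3.65 TPM in ∆CRD1,2/– cells, and neither group overlapped with wild type. Within read length the differences were -2.39 ± 0.24 (adjusted p = 0.00013) and -1.50 ± 0.28 (adjusted p = 0.00377), and both were kept under all alternatives. Without the transactivation domain alone, the homozygous cells had 8.61 and 8.36 TPM, a difference of -1.11 ± 0.22 (adjusted p = 0.0163). This call was lost without ∆CRD1/∆CRD1 sample 1 (adjusted p = 0.149) or 2 (0.141) or wild-type sample 1 (0.0517). In ∆CRD1/– cells, at 6.96 and 5.75 TPM, the difference of -0.97 ± 0.28 missed the threshold (adjusted p = 0.062), but was called by edgeR on recovered reads (adjusted p = 0.0274).

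Meis1 was also lower in both ∆/∆ pairs. The first ∆/∆ pair was at 11.4 and 8.27 TPM, of which the higher lay just inside the wild-type range, whose lowest library was at 11.3 TPM. This pair was lower than wild type by -0.92 ± 0.26 (adjusted p = 0.0189). This call was lost without wild-type sample 1 (adjusted p = 0.0514) or 2 (0.0632) and without ∆/∆ sample 2 (0.155), and it stood at 0.0514 with the libraries of 50 nt reads alone. The difference between this pair and ∆CRD1,2/– cells, which differ in read length, was 0.58 (95% interval -0.27 to 1.42) and did not pass the test. In the Prd experiment Meis1 was at 11.7 and 14.3 TPM in +/∆ cells, at 5.63 and 4.36 TPM in Prd/∆ cells and at 5.55 and 4.37 TPM in ∆/∆ cells. It fell by 1.37 ± 0.21 in Prd/∆ cells (adjusted p = 0.00296) and by 1.38 ± 0.21 in ∆/∆ cells (adjusted p = 0.0029), and these progenitor groups differed by 0.01.

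Hoxa9 was called lower in every ∆CRD1-carrying genotype but in neither ∆/∆ pair. Hoxa9 (chr6:52223100-52231089) was at 6.48, 11, 4.36, 4.09 and 5.69 TPM in wild-type cells, from 175 to 370 reads. In ∆CRD1/∆CRD1 cells it was at 0.591 and 0.77 TPM (23 and 25 reads), in ∆CRD1/– cells at 0.572 and 0.408 TPM (25 and 18 reads) and in ∆CRD1,2/∆CRD1,2 cells at 0.469 and 0.618 TPM (19 and 25 reads). All 6 libraries lay below every wild-type library. The differences of -3.27 ± 0.33 (adjusted p = 0.000393), -2.89 ± 0.42 (adjusted p = 0.00158) and -2.76 ± 0.36 (adjusted p = 0.000685) kept their calls under all alternatives. Hoxa9 was higher in ∆CRD1,2/– cells, at 2.08 and 1.04 TPM, a difference of -1.46 ± 0.42 from wild type (adjusted p = 0.0317). That call was lost without wild-type sample 3 (adjusted p = 0.122) or 4 (0.0945), and without ∆CRD1,2/– sample 2 the difference was -0.99 (0.184).

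By contrast, the first ∆/∆ pair had 9.69 and 6.55 TPM of Hoxa9 (241 and 81 reads), within the wild-type range. It differed from wild type by 0.10 (95% interval -0.74 to 0.95). The second ∆/∆ pair, at 4.76 and 3.46 TPM against 4.44 and 5.79 TPM in +/∆ cells, did not pass the test. The first ∆/∆ pair and ∆CRD1,2/– cells, which differ in read length, differed by 1.56 ± 0.57 (adjusted p = 0.216). That did not pass after adjustment, nor did the difference between ∆CRD1,2/– and ∆CRD1/– cells, 1.43 ± 0.42 (adjusted p = 0.129). With ∆CRD2 alone, Hoxa9 was at 3.26 and 2.72 TPM in ∆CRD2/∆CRD2 and at 1.62 and 2.43 TPM in ∆CRD2/– cells. All of these libraries lay below every wild-type library, but neither genotype passed the test. Among the central deletions, only the double deletion passed. Hoxa9 was at 3.95 and 4.19 TPM in ∆OP/∆OP, 3.34 and 4.04 TPM in ∆HD/∆HD and 1.28 and 0.663 TPM in ∆OP,HD/∆OP,HD cells (51 and 26 reads). The double deletion lay below both of its wild-type controls by 2.07 ± 0.35 (adjusted p = 0.04), a call that each of the 8 fits without 1 library ended (adjusted p up to 0.181). In Prd/∆ progenitors, at 2.96 and 2.78 TPM against 4.44 and 5.79 TPM in +/∆ cells, the difference was -0.80 ± 0.24 (adjusted p = 0.0353). It was lost without any 1 of those 4 libraries, at most without +/∆ sample 2 (adjusted p = 0.229). Hoxa9 contains Mir196b on its own strand, and reads of that locus could not be separated.

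**Figure D2:**
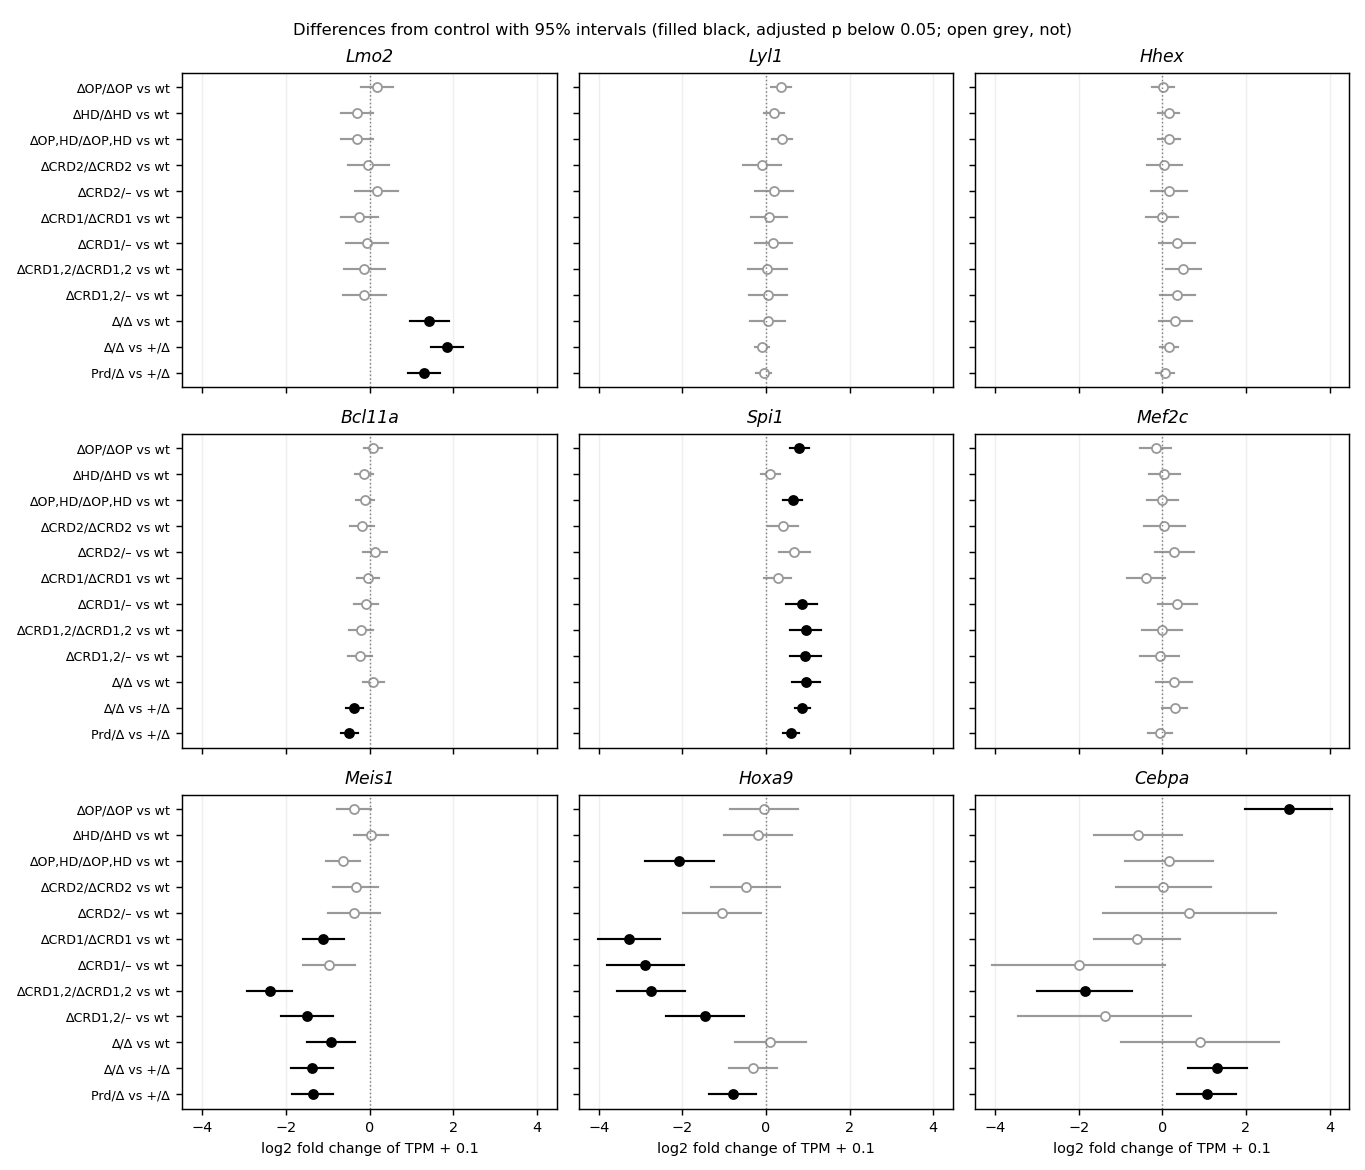
Difference from control on the log2(TPM + 0.1) scale for each gene and genotype (points, with 95% intervals from limma; filled black where the adjusted p is below 0.05, open grey otherwise). Lmo2 is called higher only for ∆/∆ and Prd/∆ progenitors, Spi1 lies to the right of 0 throughout, and Meis1 and Hoxa9 are called lower in the ∆CRD1-carrying genotypes, except Meis1 in ∆CRD1/– cells.

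Cebpa was the lowest of the 9 genes in wild-type pro-B cells and the only one with a several-fold rise after a central deletion. Cebpa (chr7:35119293-35121928) was at 1.89, 1.34, 1.34, 1.89 and 2.54 TPM in wild-type cells (37 to 71 reads) and at 9.79 and 18.9 TPM in ∆OP/∆OP cells (356 and 598 reads), a difference of 3.02 ± 0.45 (adjusted p = 0.047). Each of the 8 fits without 1 library ended this call, at an adjusted p of up to 0.327. In ∆OP,HD/∆OP,HD cells, which also lack the octapeptide, Cebpa was at 1.54 and 2.09 TPM, within the wild-type range. One other library was high, ∆CRD2/– sample 1 at 9.23 TPM (308 reads), while its replicate was at 0.646 TPM (23 reads), and that genotype did not pass the test.

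Markers of granulocytes and monocytes were also abundant in the libraries with high Cebpa. The summed level of 17 such markers was 7150 and 7516 TPM in ∆OP/∆OP cells, 16634 TPM in ∆CRD2/– sample 1 and 1238 TPM in its replicate, against 849 to 7027 TPM in wild-type cells. Elane, encoding neutrophil elastase, was at 178 and 349 TPM in ∆OP/∆OP cells and at 161 TPM in ∆CRD2/– sample 1, whereas it was at 12.3 to 55.6 TPM in wild-type cells. Mpo, encoding myeloperoxidase, was at 647 and 970 TPM, 454 TPM and 23.9 to 99.1 TPM in the same libraries. In ∆OP/∆OP cells 0 of the 17 markers passed the test, where 0.485% of all genes did, and their median difference was 0.93, against -0.03 for all genes. ∆CRD2/∆CRD2 sample 1 and wild-type sample 4 had 9452 and 7027 TPM of summed markers with 2.5 and 1.89 TPM of Cebpa. In these libraries Mpo was at 171 and 99.1 TPM and Elane at 123 and 55.6 TPM, both below the ∆OP/∆OP libraries. S100a8 was at 1557 and 1226 TPM in them, against 670 and 694 TPM in ∆OP/∆OP cells. The part of granulocytes and monocytes in the Cebpa values was not tested.

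**Figure D3:**
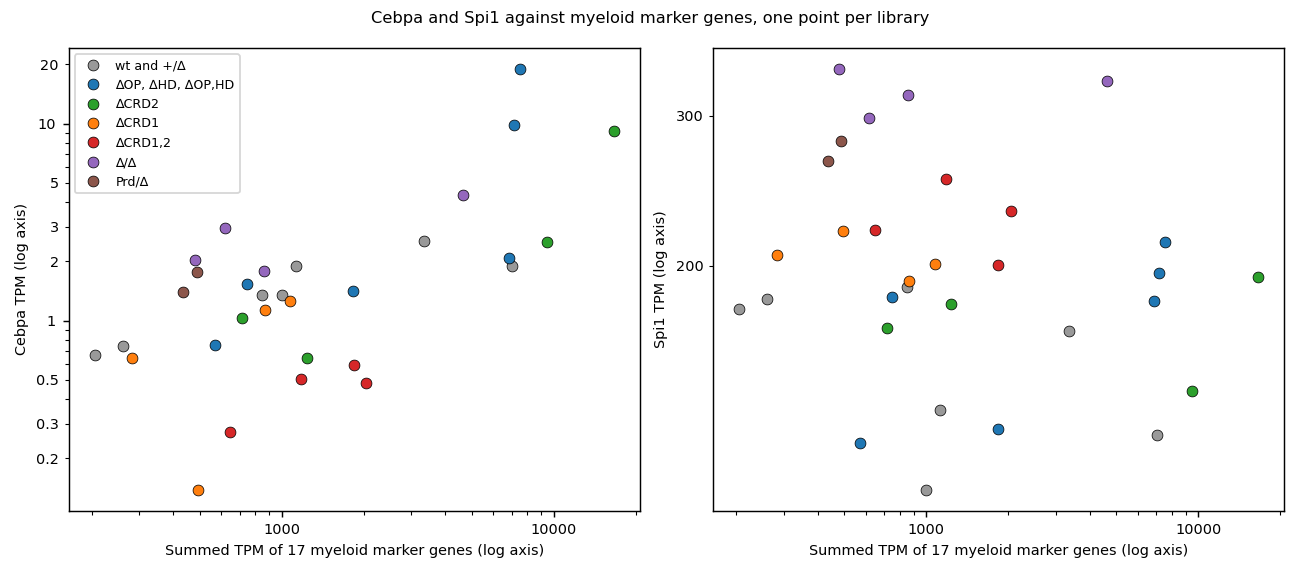
Cebpa and Spi1 in TPM (log axes) against the summed TPM of 17 granulocyte, monocyte and macrophage markers, with 1 point per library. The ∆OP/∆OP libraries and ∆CRD2/– sample 1 stand above the others in Cebpa at 9.23 to 18.9 TPM, and all 3 have at least 7150 TPM of summed markers; the 4 ∆/∆ libraries are high in Spi1, 298 to 340 TPM, over 479 to 4621 TPM of markers.

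At its low end, Cebpa fell to 0.483 and 0.272 TPM in ∆CRD1,2/∆CRD1,2 cells (16 and 9 reads), a difference of -1.86 ± 0.50 (adjusted p = 0.0261). This call was lost without wild-type sample 3 (adjusted p = 0.0643) or 4 (0.107), without ∆CRD1,2/∆CRD1,2 sample 1 (0.0571) or 2 (0.157), and within 100 nt reads (0.0899). Beside it, 5 of the 17 myeloid markers were lower and 0 higher in these cells, where 22.2% of all genes passed. Relative to +/∆ cells, at 0.672 and 0.742 TPM, Cebpa was higher in Prd/∆ (1.4 and 1.77 TPM, 1.06 ± 0.30, adjusted p = 0.0296) and in ∆/∆ progenitors (1.79 and 2.02 TPM, 1.31 ± 0.30, adjusted p = 0.0138). The ∆/∆ call was lost without any 1 of its 4 libraries (adjusted p up to 0.077). For Prd/∆ it was lost without +/∆ sample 1 (0.127) or 2 (0.0917), Prd/∆ sample 2 (0.0531) or either ∆/∆ sample (0.0523 and 0.0543). Of 15 myeloid markers tested, 4 were higher and 3 lower in Prd/∆ cells (median difference 0.82), where 40.7% of all genes passed. In ∆/∆ cells 9 were higher and 3 lower (median 1.73), where 39.9% of all genes passed. Their part in the Cebpa and Spi1 values was not tested. All of these Cebpa levels were at or below 2.02 TPM.

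Counted over all 9 genes and read against all genes tested, the calls were as follows. In ∆OP/∆OP cells 2 of 9 genes passed, Spi1 and Cebpa, where 0.485% of all genes did. In ∆OP,HD/∆OP,HD cells 2 of 9 passed, Spi1 and Hoxa9, where 1.22% of all genes did. For ∆CRD1/– the count was 2 of 9 (8.51% of all genes), for ∆CRD1/∆CRD1 2 of 9 (5.98%), for ∆CRD1,2/– 3 of 9 (20.2%) and for ∆CRD1,2/∆CRD1,2 4 of 9 (22.2%). In ∆/∆ progenitors 3 of 9 passed against 31.7% of all genes, a share near the background. The Prd experiment gave 5 of 9 for ∆/∆ (39.9% of all genes) and 6 of 9 for Prd/∆ (40.7%) relative to +/∆. The median difference of the 9 genes lay between -0.26 and 0.33 in all 16 comparisons with rises and falls mixed.

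In 6 comparisons 0 of 9 genes passed limma's test. For ∆HD/∆HD, 0 genes had an unadjusted p under 0.05 and 0 passed by edgeR on recovered reads (background 0.639%). For ∆CRD2/– these counts were 2 and 0 (0.513%), for ∆CRD2/∆CRD2 1 and 0 (0.0447%), for ∆CRD1,2/– against ∆CRD1/– 1 and 0 (2.17%) and for Prd/∆ against ∆/∆ 3 and 0 (1.97%). For ∆CRD1,2/∆CRD1,2 against ∆CRD1/∆CRD1 they were 2 and 1 (1.42%), the 1 gene being Meis1, lower in the double deletion by 1.28 in limma (adjusted p = 0.107) and by 1.32 in edgeR (adjusted p = 0.0275). The ∆CRD1,2/∆CRD1,2 and ∆CRD1/∆CRD1 libraries differ in read length. Comparisons with wild type share the wild-type libraries, and those with +/∆ share the +/∆ libraries, so they are not independent of each other.

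In the T lineage all 9 genes fell, 3 of them already before DN1 and most of them at several steps. From LMPP to DN1, 3 of 9 genes fell and 0 rose, where 18.6% of all genes changed. Lmo2 went from 909 and 985 TPM to 137, 119 and 111 TPM, a difference of -2.95 ± 0.28 (adjusted p = 4.5e-06). Meis1 went from 129 and 150 TPM to 21.9, 21 and 21.3 TPM (-2.69 ± 0.30, adjusted p = 1.73e-05), and Cebpa from 104 and 149 TPM to 16.9, 13.7 and 9.15 TPM (-3.27 ± 0.40, adjusted p = 4.45e-05). These 3 genes were thus at 13%, 15.4% and 10.4% of their LMPP mean in DN1 cells without any overlap. The other 6 genes were at 54.9% (Hoxa9) to 127% (Bcl11a) of it, and Spi1, at 347 and 422 TPM in LMPP and 449, 457 and 437 TPM in DN1, had its highest levels in DN1.

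**Figure D4:**
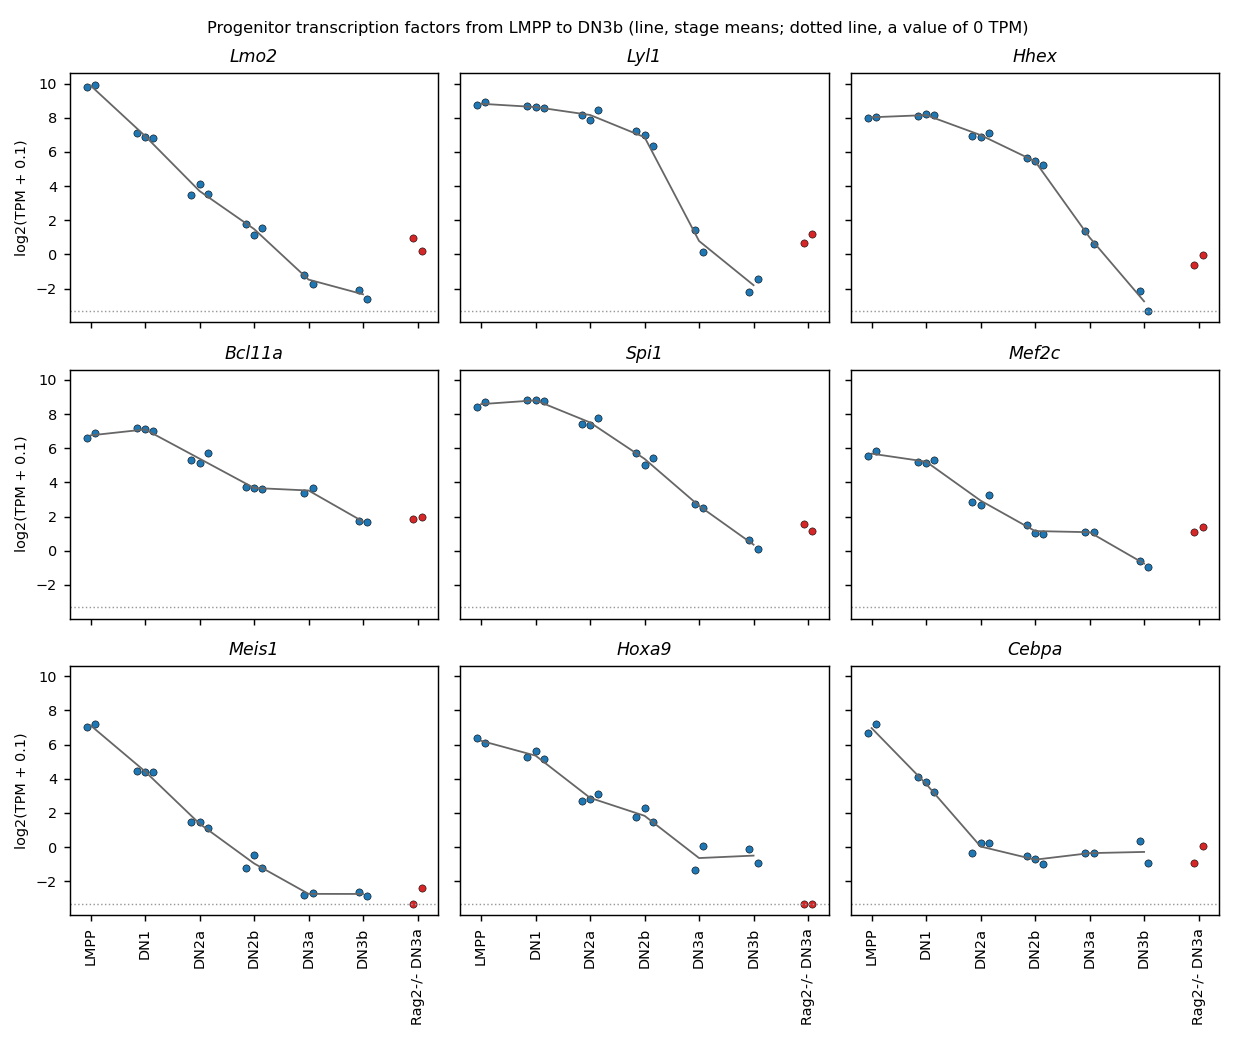
Level of the 9 genes as log2(TPM + 0.1) in LMPP cells, in DN1 to DN3b thymocytes and in Rag2–/– DN3a thymocytes, with 1 point per library, a line through the wild-type stage means and a dotted line at 0 TPM. Lmo2, Meis1 and Cebpa drop already between LMPP and DN1, Lyl1 is at 236 TPM or more up to DN2a and drops at DN3a to 2.58 TPM or less, and Bcl11a is still at 10.3 and 12.6 TPM in DN3a.

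From DN1 to DN2a, 8 of 9 genes fell, where 22.9% of all genes tested fell and 33.7% changed. The differences ranged from -1.17 for Hhex to -3.66 for Cebpa, which reached 0.671, 1.08 and 1.06 TPM and stayed at 0.405 to 1.19 TPM in all later libraries. Hoxa9 went from 38.5, 48.8 and 35.8 TPM to 6.47, 7 and 8.41 TPM, and Spi1 from 449, 457 and 437 TPM to 168, 164 and 219 TPM. Neither gene's groups overlapped. Lyl1 did not pass, at 408, 399 and 379 TPM in DN1 and 282, 236 and 355 TPM in DN2a (-0.46, 95% interval -1.13 to 0.20), although its groups did not overlap either.

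From DN2a to DN2b, the step at which T cell commitment is placed, 8 of 9 genes fell again, where 8.43% of all genes fell and 18.2% changed. Lmo2 went from 11.1, 17.1 and 11.6 TPM to 3.32, 2.14 and 2.79 TPM (-2.22 ± 0.25, adjusted p = 2.79e-05), and Spi1 to 52.0, 32.1 and 42.8 TPM (-2.13 ± 0.20, adjusted p = 4.42e-06). Lyl1, at 147, 129 and 82.8 TPM, had now fallen by 1.30 ± 0.31 (adjusted p = 0.0086). With same-numbered samples averaged, this Lyl1 call was lost (-1.28, adjusted p = 0.0598). Hoxa9 fell to 3.25, 4.71 and 2.67 TPM (-1.05 ± 0.32, adjusted p = 0.0364). Its call was lost without any 1 of the DN2a samples (adjusted p 0.0647 to 0.0789) or with same-numbered samples averaged (0.111). It was also lost without either of 2 DN2b samples (0.0998 and 0.102) or without LMPP sample 2 (0.0508). Cebpa, already below 1.1 TPM, was the gene that did not pass (adjusted p = 0.163).

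Lyl1 and Hhex dropped most sharply afterwards. From DN2b to DN3a, 6 of 9 genes fell, where 14.4% of all genes fell and 45.8% changed. Lyl1 went to 2.58 and 1.01 TPM, a difference of -6.08 ± 0.34 (adjusted p = 3.11e-08), and Hhex from 50, 44.4 and 37.3 TPM to 2.46 and 1.45 TPM, a difference of -4.46 ± 0.29 (adjusted p = 1.07e-07). Neither gene's groups overlapped. Lmo2 reached 0.336 and 0.197 TPM, Meis1 0.0443 and 0.0544 TPM, Hoxa9 0.297 and 0.928 TPM and Spi1 6.68 and 5.54 TPM. Bcl11a (13.4, 12.4 and 12.2 TPM to 10.3 and 12.6 TPM) and Mef2c (2.68, 1.93 and 1.84 TPM to 2.02 and 2.02 TPM) did not pass and overlapped between the stages.

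From DN3a to DN3b, the stage after selection for a T cell receptor beta chain, 6 of 9 genes fell, where 39.2% of all genes fell and 53.4% changed. Bcl11a fell to 3.26 and 3.07 TPM (-1.82 ± 0.18, adjusted p = 2.34e-06), Mef2c to 0.572 and 0.424 TPM (-1.84 ± 0.24, adjusted p = 2.14e-05) and Spi1 to 1.44 and 0.965 TPM (-2.27 ± 0.24, adjusted p = 3.68e-06). Hhex was at 0.122 TPM in 1 library and listed at 0 in the other, and Lyl1 was at 0.12 and 0.274 TPM. The fall of Lmo2 to 0.138 and 0.0649 TPM (-0.86, adjusted p = 0.03) was lost without DN3a sample 1 (-0.58) or DN3b sample 2 (-0.60). It was also lost with a pseudocount of 1 (-0.20, adjusted p = 0.479), with median-ratio scaling (0.115) or without the filter (0.0718). These Lmo2 levels are near the pseudocount of 0.1.

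Across the whole path from LMPP to DN3a, 9 of 9 genes were lower, where 24.7% of all genes were lower and 53.8% changed. Lmo2, with a difference of -11.36 ± 0.31, and Meis1, with -9.86 ± 0.33, had the largest differences of the 9, and Bcl11a, with -3.23 ± 0.18, the smallest. As shares of the LMPP mean, DN3a levels were 0.0281% for Lmo2, 0.0354% for Meis1, 0.396% for Lyl1, 0.537% for Cebpa, 0.748% for Hhex, 0.82% for Hoxa9, 1.59% for Spi1, 3.93% for Mef2c and 10.6% for Bcl11a. The median of all genes itself shifted by -0.18 from DN1 to DN2a, by 0.27 from DN2b to DN3a, by -0.41 from DN3a to DN3b and by 0.13 from LMPP to DN3a, against medians of -2.28, -2.47, -1.82 and -7.04 for the 9 genes. The summed level of 17 myeloid markers (16 present in the mm9 tables) also fell, from 2580 and 2689 TPM in LMPP to 1973 to 2242 TPM in DN1, 535 to 555 TPM in DN2a, 54.4 to 73.2 TPM in DN2b, and was at 57.4 and 52.6 TPM in DN3a and 4.03 and 1.35 TPM in DN3b. Of 15 myeloid markers tested from DN2b to DN3a, 4 rose and 6 fell, where 45.8% of all genes changed. The part of such cells in these values was not tested.

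Rag2–/– DN3a thymocytes, which stop before beta selection, differed from wild-type DN3a cells in 5 of 9 genes, where 26.4% of all genes changed. Lmo2 was higher, at 1.84 and 1.04 TPM against 0.336 and 0.197 TPM (2.05 ± 0.31, adjusted p = 0.000516). Bcl11a, at 3.50 and 3.81 TPM, and Spi1, at 2.87 and 2.09 TPM, were lower by -1.62 ± 0.18 (adjusted p = 6.45e-05) and -1.28 ± 0.24 (adjusted p = 0.00188) without overlap. Hhex, at 0.554 and 0.865 TPM, was lower by -1.33 ± 0.31 (adjusted p = 0.00783), a call lost without DN3a sample 1 (0.1) or Rag2–/– sample 1 (0.0859). Hoxa9, the last of the 5, was listed at 0 in both Rag2–/– libraries, against a mean of 0.612 TPM in wild-type DN3a cells. Its difference of -2.67 (adjusted p = 0.000461) depended on the pseudocount. With a pseudocount of 1 it was -0.66, and the call was lost (adjusted p = 0.0594). The median of all genes shifted by -0.18 in this comparison. Of 15 myeloid markers tested, 4 were higher and 0 lower, with summed levels of 84.0 and 135 TPM against 57.4 and 52.6 TPM, and their part in these values was not tested.

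Set against the thymic stages, pro-B cells held the members at very different points. The wild-type means of Lyl1 (400 TPM), Hhex (196 TPM), Bcl11a (103 TPM) and Mef2c (72.3 TPM) were within the range of, or above, those of LMPP, DN1 and DN2a cells. Lmo2 (64.1 TPM) and Meis1 (16.3 TPM) lay between DN1 and DN2a, and Cebpa (1.8 TPM) did so too. Hoxa9 (6.32 TPM) and Spi1 (146 TPM) lay between DN2a and DN2b by mean, although some wild-type libraries reached into the DN2a range of each. The ∆/∆ means of Spi1, 314 and 329 TPM, lay between LMPP and DN2a. The mm10 and mm9 tables were normalised separately, so these positions were not tested.

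Other stem and progenitor factors, paralogues and complex partners of the 9 genes, 44 in a list, gave a further view. In ∆/∆ progenitors 4 of the 38 tested rose and 8 fell relative to wild type, with a median of -0.04 against 0.01 for all genes, of which 31.7% passed. Among the largest called differences were those of Zbtb16 (2.71 ± 0.71, adjusted p = 0.0136), the PLZF factor of innate-like lymphocytes, of Irf4 (-2.19 ± 0.17, adjusted p = 3.55e-06), an interferon regulatory factor that binds with PU.1, and of Spib (-1.49 ± 0.16, adjusted p = 3.74e-05), the closest relative of PU.1. In the other experiment 6 rose and 13 fell of 34 in ∆/∆ cells (39.9% of all genes passed), and 7 rose and 10 fell in Prd/∆ cells (40.7%). In ∆CRD1/∆CRD1 cells 0 rose and 7 fell of 37 (5.98% of all genes passed), in ∆CRD1/– cells 1 rose and 6 fell of 38 (8.51%), in ∆CRD1,2/– cells 1 rose and 13 fell of 38 (20.2%), and in ∆CRD1,2/∆CRD1,2 cells 2 rose and 16 fell of 37 (22.2%). None of the partners passed for ∆OP, ∆HD or ∆OP,HD, where 0.485%, 0.639% and 1.22% of all genes did. None passed for ∆CRD2/– or ∆CRD2/∆CRD2 either, where 0.513% and 0.0447% of all genes did. These counts of 0 are near the background.

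From LMPP to DN3a, 11 of 43 partners rose and 26 fell, where 53.8% of all genes changed. Bcl11b, the T cell commitment factor, rose by 10.01 ± 0.34 and Spib by 8.15 ± 0.30, whereas the stem cell factors Hlf, with -9.94 ± 0.48, and Gata2, with -9.38 ± 0.34, fell. Spib thus had the opposite direction to Spi1 in both ∆/∆ progenitors and DN3a thymocytes. All 10 T cell lineage markers rose from LMPP to DN3a, and 5 of the 7 tested rose in ∆/∆ progenitors, where their summed level was 871 and 960 TPM against 220 to 258 TPM in wild-type cells. In the same ∆/∆ cells, where 31.7% of all genes passed, 6 of 7 dendritic cell markers rose, 8 of 10 B cell lineage markers fell and 1 rose. Of 17 myeloid markers 3 fell, and of 5 erythroid markers 3 fell and 1 rose. Summed dendritic markers were at 1170 and 1503 TPM in these cells against 147 to 234 TPM in wild-type cells, and their part in the Lmo2 and Spi1 values was not tested.

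The genes with the most similar pattern over the 14 groups of the mm10 tables, by Pearson's r of group means of log2(TPM + 0.1) among 11025 genes, differed for each member. For Hoxa9 they were its cluster neighbour Hoxa7 (r = 0.92) and Usp2 (0.92), for Cebpa Mpo (0.93) and Slc16a3 (0.93) and for Spi1 Kcnk12 (0.96) and Ebi3 (0.94). For Lmo2 they were Spr (0.97) and Cdpf1 (0.96), for Lyl1 Egln2 (0.97) and Esrra (0.96), for Hhex Mtdh (0.97) and Ppp1r3e (0.95), for Bcl11a Arid4b (0.93) and Ppig (0.89), for Mef2c Cdk19 (0.95) and G3bp2 (0.93) and for Meis1 Wnk1 (0.95) and Tbc1d1 (0.94). The 14 groups share experiments and read lengths, so these values are a description.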

How the data were processed

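RNA-seq files of 48 libraries were used. For the 31 libraries of Pax5 genotypes the authors trimmed reads to 50 nt, aligned them to mm10 (STAR 2.4.2a) and deposited TPM and, for some libraries, raw read counts. The 17 lymphoid libraries were aligned by the authors to mm9 (TopHat 1.4.1); their files hold 2 rows of values per gene, deposited without an explanation and treated as a score, of which the mean was used as TPM, with entries of exactly 1 read as 0. The 2 values of a member differed 1.01-fold to 1.52-fold. Of the mm10 files, 8 carry no gene names and were read by row order, checked against raw counts. The strand setting is not given in the sources used here. The authors' tables of comparisons were not used.

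The 9 genes, the partner and marker lists and the tests were chosen with earlier results of these data known. Tests used limma 3.58.1 (R 4.3.3) on log2(TPM + 0.1) with trend, two-sided, for every gene that exceeded 1 TPM in any sample of its model, with Benjamini-Hochberg adjustment over all of them and a threshold of 0.05. The fold and level thresholds of the study (3-fold, mean of 5 TPM) were not applied. The central deletions were compared with wild-type samples 3 and 4, the C-terminal mutants with all 5 under a read-length term. The deposited TPM gave whole reads for 100% of values tested within 0.05, and edgeR 4.0.16 quasi-likelihood tests on these recovered counts served as an alternative. Other alternatives were pseudocounts, no filter, median-ratio scaling, no trend, no read-length term, 1 read length, a replicate block and leaving out each library. For the lymphoid libraries, same-numbered samples were also averaged. Replicate pairs of the mm10 tables differed by more than sampling noise (chi-square per degree of freedom 5.32 to 146 over 23 pairs). None of these pairs was therefore 1 library sequenced again. The mm9 pairs, including the same-numbered DN1, DN2a and DN2b libraries, have no counts and were not tested in this way. The labels do not say that replicates came from separate animals, so p-values measure the spread between these samples. Genes named were all 9 members, the 4 called partners with the largest difference in ∆/∆ cells and in DN3a against LMPP, and the 2 genes most alike in pattern to each member; 1 of these partners is not reported here. The scripts were tested on simulated data. Promoters came from RefSeq (GRCm38.p6), which matched 7 of the 9 genes, and positions from GENCODE M21.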

Additional observations from a re-analysis of the deposited data

How the results depend on the processing

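Of 75 calls of a gene in a comparison, 24 were lost under at least 1 alternative and 0 reversed, and 1598 of 1726 alternative values kept the call. Among 478 alternative counts of members called, 422 lay within 1.5 times the reported count. Of 9 members, ∆OP/∆OP called 2, but 1 with a pseudocount of 0.01 and 0 without the filter or the trend; ∆OP,HD/∆OP,HD called 2, but 0 without the filter or the trend. ∆/∆ against ∆CRD1,2/– called 1, but 0 without the filter or the trend and 5 without the read-length term. ∆CRD1/∆CRD1 called 2, but 1 without the read-length term. ∆CRD1,2/∆CRD1,2 against ∆CRD1/∆CRD1 called 0, but 1 with median-ratio scaling, without the read-length term or with edgeR. ∆/∆ against +/∆ called 5, but 3 without the filter. The cause was not tested.

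Without 1 library each, counts ranged from 0 to 0 for ∆OP/∆OP and ∆OP,HD/∆OP,HD, 1 to 3 for ∆CRD1/– (reported 2), 2 to 3 for ∆CRD1,2/– and for ∆/∆ (3), 0 to 1 for ∆/∆ against ∆CRD1,2/– (1), 1 to 2 for ∆CRD1/∆CRD1 (2), 3 to 5 for ∆CRD1,2/∆CRD1,2 (4), 3 to 5 for ∆/∆ (5) and Prd/∆ (6) against +/∆, 7 to 8 from DN2a to DN2b (8), 5 to 6 from DN3a to DN3b (6) and 4 to 5 for Rag2–/– DN3a (5). The other 10 comparisons kept their counts.

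Same-numbered replicates share only a number: over 20 comparisons their deviations correlated between -0.28 and 0.17, with 4 of 40 values above 0.1. A replicate block without the read-length term gave 5 calls for ∆CRD1/–, ∆CRD1,2/– and ∆/∆ against ∆CRD1,2/–, and 3 for ∆CRD2/∆CRD2 and ∆CRD1,2/∆CRD1,2 against ∆CRD1/∆CRD1. It ended the Spi1 calls in ∆CRD1/– (0.41, adjusted p = 0.123), ∆CRD1,2/– (0.49, 0.0554) and ∆CRD1,2/∆CRD1,2 cells (0.50, 0.0537), and the block alone ended those of Hoxa9 and Cebpa in Prd/∆ cells (0.0549 and 0.0511). Without the read-length term but with no block, the calls of Spi1 in ∆CRD1/– cells (0.0614) and of Meis1 in ∆CRD1/∆CRD1 (0.0792) and ∆/∆ cells (0.0772) were lost. No paired analysis was possible for the central deletions because wild-type samples 3 and 4 share no number with the mutants. In the T lineage, Hhex lost its calls at DN2a and DN2b with a pseudocount of 0.01 (adjusted p = 0.158 and 0.11). TPM of the mm9 files carry no depth, which limits values below 1 TPM.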

Other observations

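Levels of the 9 genes went together more closely along the T lineage than between Pax5 genotypes. Over the 7 groups of lymphoid libraries, Pearson's r of group means between members lay between 0.60 and 0.99 for the 36 pairs of genes, with a median of 0.90 and 0 negative values. Over the 14 groups of Pax5 genotypes it lay between -0.59, for Spi1 with Meis1, and 0.79, for Lmo2 with Spi1, with a median of 0.36 and 4 negative values. These are descriptions over few groups that share experiments, and the 2 sets of tables were normalised separately.

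Neighbours of Hoxa9 in the Hoxa cluster were looked at after their values were seen. In ∆CRD1/∆CRD1 cells Hoxa5 differed from wild type by -3.34, Hoxa3 by -3.07 and Hoxa7 by -2.64 on the log2(TPM + 0.1) scale, beside -3.27 for Hoxa9. Levels, tests and other genotypes are not given for these neighbours, and other genes of the cluster are not reported. A fall of the whole cluster is therefore not shown.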
